A study of Mus musculus with 8 samples.

Results

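Neat1, Malat1 and Kcnq1ot1 are nuclear long noncoding RNAs, and they were taken here by gene name from the lists of N6-methyladenosine (m6A) sites of 4 mouse TBLC libraries. Of the 3 named genes, 2 had a listed site, among 10609 genes in the lists. Neat1 had 34 sites and Malat1 had 18, which together make 52 of 85953 listed sites. Kcnq1ot1 had 0. The m6A was measured by GLORI, a chemistry that turns unmethylated adenosine into a base read as G and leaves methylated adenosine to be read as A. The level of a site is therefore the A reads as a fraction of the A and G reads there. The 4 groups of the series hold 2 libraries each. The TBLC, grown in MYCP medium, were given siRNA to Virma (siVirma) or a control siRNA (siNC), and the EPSC carried a dCas13b-FTO demethylation system with a guide to Gata6 (sgGata6) or a control guide (sgCtrl). All libraries were built from purified mRNA, per the labels' protocols, and TBLC and EPSC are the only names the labels give these cells. Whether the replicates of a group are separate cultures is not in the labels, so their spread may be technical.

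Neat1 is the architectural RNA of paraspeckles, nuclear bodies assembled on its long isoform by proteins such as Nono and Sfpq, and a shorter polyadenylated isoform shares its 5′ end. Malat1 is an abundant RNA of nuclear speckles, the storage sites of splicing factors, and its mature 3′ end is cut by RNase P and protected by a triple helix. Kcnq1ot1 is transcribed antisense within Kcnq1 from the paternal chromosome and silences imprinted genes around it, among them Cdkn1c. Virma is the large scaffold subunit of the m6A writer complex around Mettl3 and Mettl14. Human MALAT1 carries well-studied m6A sites, one of which opens a hairpin to the protein HNRNPC.

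The listed sites held 3423268 and 2655963 A+G reads in the siVirma libraries, against 4764955 and 4367999 in the siNC libraries. Virma itself, the target of the siRNA, had a gene coverage of 24.0 and 22.8 in siVirma, against 40.3 and 38.2 in siNC. To be in a list a site needs 15 A+G reads, 5 A reads and a level of 0.1, so a site missing from a list has no value there. All 12 naive pluripotency markers looked for had a listed site in TBLC, and so did 10 of 15 genes of the 2-cell stage program, where Dux and Tcstv1 were among those with none. Fibroblast (feeder) markers were also present, with a listed site in 20 of 20 genes.

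Both RNAs are read from the minus strand of chromosome 19 in the mm39 build, so the 5′ end has the highest coordinate. The Neat1 sites lay between 5892438 and 5895506, a span of 3069 nt with a median gap of 55 nt between neighbours. The Malat1 sites were fewer and further apart, between 5847887 and 5852699, a span of 4813 nt with a median gap of 197 nt. No annotation of mm39 was used, so isoforms and exons are not stated. The single lists held 14 and 14 Neat1 sites in siVirma, against 29 and 27 in siNC. For Malat1 they held 6 and 6 in siVirma, against 14 and 17 in siNC. Of 8492 genes with a site in both siNC lists, 143 had as many as the 24 of Neat1 or more, and 879 had as many as the 13 of Malat1 or more.

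The comparison of siVirma with siNC asks how m6A in TBLC changes with siRNA to Virma, whose own coverage was lowered and not lost. Neat1, Malat1 and Kcnq1ot1 were chosen by name with the listed levels, lost sites and gene coverages of this comparison already known, so their values in it are a description. At every Neat1 site found in all 4 lists, and at 5 of 6 such Malat1 sites, both siVirma levels lay below both siNC levels. The exception was the most 5′ Malat1 site, whose level was near 0.9 in all 4 libraries. Of the sites in both siNC lists, 15 of 24 in Neat1 and 7 of 13 in Malat1 were in neither siVirma list, beside 33.1% of all such sites. The sites that were gone had started low, with mean siNC levels of at most 0.297 in Neat1 and 0.194 in Malat1. The coverage of Neat1 was also lower in siVirma, and that of Malat1 was within its spread between replicates.

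Neat1 had 9 sites in all 4 lists, each read at least 20 times per library. Position 5893717 kept the largest share of its level, 58.8%, with levels of 0.387 and 0.426 in siVirma against 0.679 and 0.703 in siNC. Position 5894054, the most methylated of the 9, had 0.396 and 0.408 in siVirma against 0.746 and 0.772 in siNC, which is 52.9% kept. Even at these sites the siVirma libraries stood well under the siNC libraries, by several times the gap between replicates. Position 5892476, towards the 3′ end of the listed stretch, had 0.128 and 0.166 in siVirma against 0.348 and 0.297 in siNC. At 5894109 the levels were 0.207 and 0.170 in siVirma against 0.424 and 0.425 in siNC. Those sites kept 45.5% and 44.5%, close to the median of 42.8% over the 9 sites.

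The 4 Neat1 sites that kept least did not differ much from these. Position 5893373 had 0.243 and 0.269 in siVirma against 0.675 and 0.634 in siNC, or 39.1% kept. Position 5894481 had 0.160 and 0.136 in siVirma against 0.371 and 0.384 in siNC, or 39.2% kept. The shares kept were thus alike at a site of mid level and at a low one. Position 5892627 had 0.318 and 0.258 in siVirma against 0.806 and 0.662 in siNC, on only 31 to 77 reads per library. Position 5893451 had 0.310 and 0.287 in siVirma against 0.699 and 0.744 in siNC, and kept 41.4%. Over all 9 sites the share kept ran from 39.1% to 58.8%, and no Neat1 site was left at its siNC level.

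**Figure D1:**
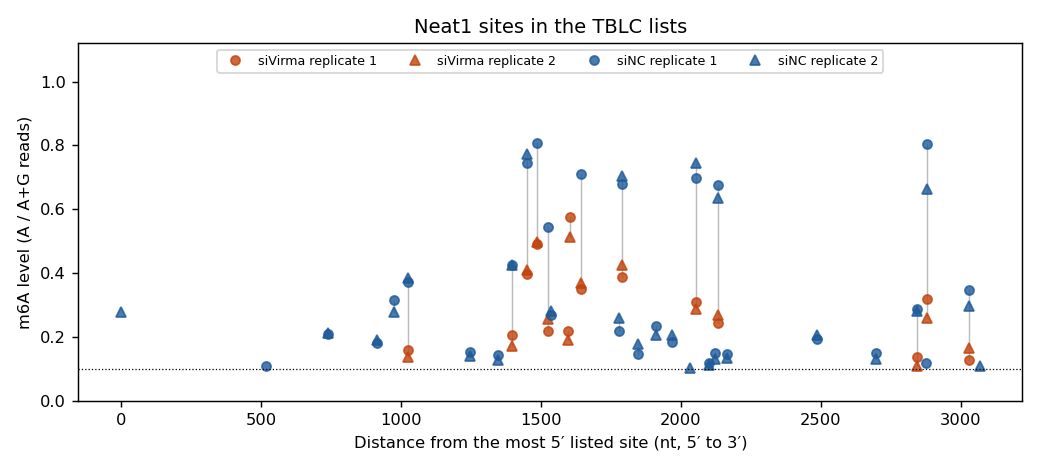
m6A level (A reads over A+G reads) of every listed Neat1 site in each TBLC library, against distance in nt from the most 5′ listed site. Orange marks siVirma, blue siNC, circles replicate 1 and triangles replicate 2; grey lines join values of a site, and the dotted line is the list minimum of 0.1. The 9 sites in all 4 lists have both siVirma values below both siNC values, and the low sites are marked in blue only.

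Malat1 had 6 sites in all 4 lists. Its most 5′ listed site, 5852699, stands 1110 nt from the next and had levels of 0.905 and 0.889 in siVirma against 0.882 and 0.920 in siNC. It kept 99.5% of its level, and the groups overlapped. The log2 change in the odds of A to G reads was -0.06 with an SE of 0.38, on 126 to 176 reads per library, so a moderate fall in the odds could have been missed. The sign turned when siNC replicate 2 or siVirma replicate 2 was left out, at 0.23 and 0.06.

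Further 3′, 4 of the 6 sites lie within 277 nt. Position 5851453, the most deeply read site of Malat1 in siVirma, had 0.492 and 0.491 in siVirma on 2392 and 2073 reads, against 0.800 and 0.822 in siNC on 2150 and 2130 reads. Position 5851495 beside it had 0.557 and 0.524 in siVirma against 0.807 and 0.831 in siNC. These neighbours kept 60.6% and 66.0% of their siNC levels, with replicates that agree to within 0.04. Position 5851313 had 0.345 and 0.365 in siVirma against 0.611 and 0.645 in siNC, and kept 56.5%. Position 5851589, the lowest of the cluster, had 0.127 and 0.161 in siVirma against 0.355 and 0.368 in siNC, and kept 39.9%. Within the cluster the most methylated sites therefore kept the most. The last of the 6, 5848170, had 0.133 and 0.117 in siVirma against 0.284 and 0.308 in siNC, and kept 42.2%.

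By edgeR's quasi-likelihood test on A and G reads (adjusted p of 0.05 over 20414 sites), 14 of these 15 sites were called lower in siVirma, 9 of 9 in Neat1 and 5 of 6 in Malat1. The background was 91.6% of all sites tested. Both siVirma levels lay below both siNC levels at the same 14 sites, against 94.8% of all sites.

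**Figure D2:**
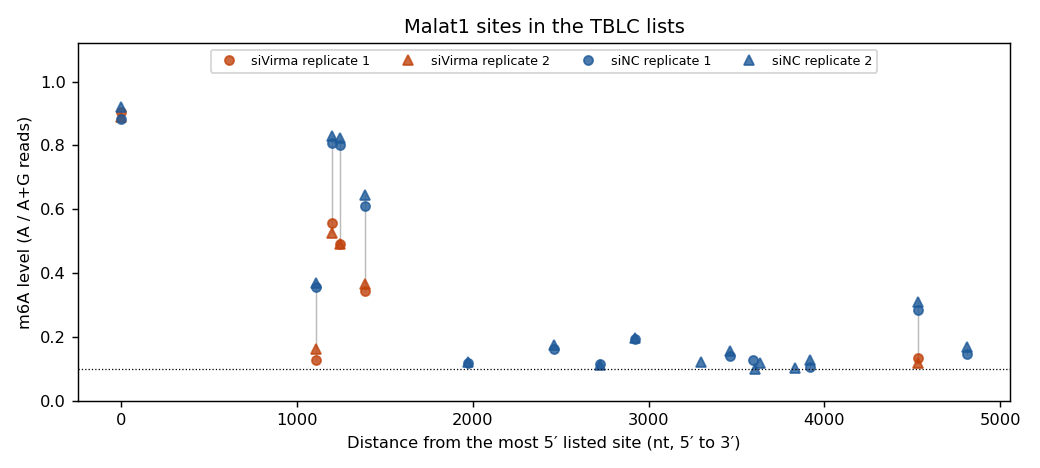
m6A level of every listed Malat1 site in each TBLC library, against distance in nt from the most 5′ listed site, with the symbols of the Neat1 plot. At distance 0 the 4 libraries lie together between 0.882 and 0.920, the cluster between 1110 and 1386 nt is lower in siVirma, and most sites beyond it are marked in siNC only.

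With reads summed over the sites in all 4 lists, the Neat1 level was 0.263 and 0.252 in siVirma against 0.538 and 0.549 in siNC. The means were 0.257 ± 0.00773 in siVirma and 0.544 ± 0.00724 in siNC (SD, n = 2 each), with a log2 change in odds of -1.78 (SE 0.07). The summed Malat1 level was 0.452 and 0.445 in siVirma against 0.719 and 0.738 in siNC. Its means were 0.448 ± 0.0053 in siVirma and 0.729 ± 0.0135 in siNC (SD, n = 2 each), with a log2 change in odds of -1.72 (SE 0.05). The level fell by 0.286 in Neat1 and fell by 0.28 in Malat1, but the siNC levels differed. Neat1 kept 47.3% and Malat1 61.5% of the siNC level, beside a median of 44.9% (quartiles 38.3% and 53.5%) over 5642 genes. Of those genes, 58.5% kept less than Neat1 and 87.2% kept less than Malat1. Both genes were called lower, as were 93.8% of all genes tested.

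The share kept depends on where a site starts, so each site was also set beside all sites of the same siNC level, in steps of 0.1. A site counts only with a siVirma level of at least 0.1, which cuts the low steps from below. The median kept was 92.2% at 0.1 to 0.2 and 54.3% at 0.2 to 0.3, against 40% at 0.4 to 0.5. Neat1 was ordinary by this measure. Of its 9 sites, 5 lay below the median of their step, 1 below the lower quartile and 2 above the upper quartile. Malat1 was split, with 4 of its 6 sites above the upper quartile and 1 below the lower. The sites above the upper quartile were 5852699 and the 3 most methylated of the cluster. Those below a lower quartile, Neat1 5892661 and Malat1 5848170, both lie in the cut step from 0.2 to 0.3, where that quartile was 47.1%. At siNC levels of 0.9 to 1 the median site kept 64.6%, and 95.8% of 3910 such sites kept less than 5852699. At 0.8 to 0.9 the median was 49.8%, and 85.8% of 3616 sites kept less than 5851495.

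**Figure D3:**
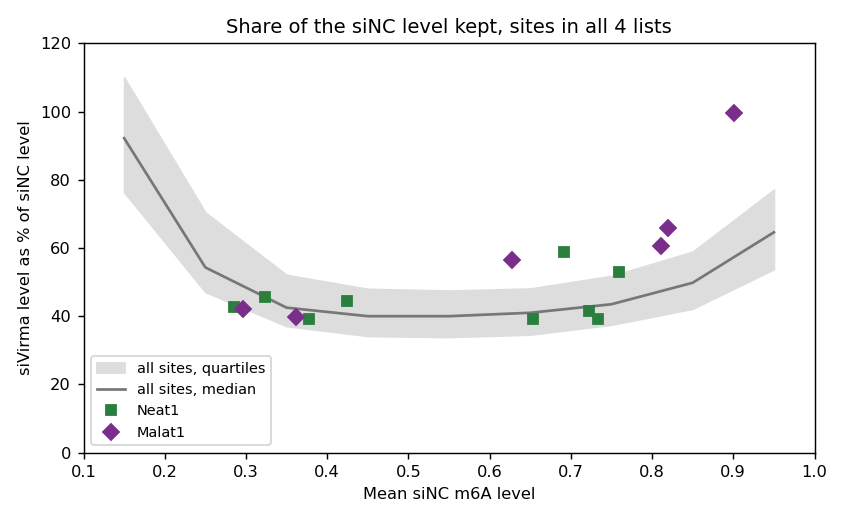
Share of the siNC level kept in siVirma (percent) against the mean siNC level, for the 9 Neat1 sites (green squares) and 6 Malat1 sites (purple diamonds) in all 4 lists. The line and band are the median and quartiles over all sites in steps of 0.1; the 4 Malat1 sites above the band are those with siNC levels over 0.6.

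The sites that left the lists were the low ones. Of the sites in both siNC lists, 62.5% of Neat1 and 53.8% of Malat1 were in neither siVirma list, and the background was 33.1% of 49554 sites. In the other direction, 37.5% of the Neat1 sites and 46.2% of the Malat1 sites were in all 4 lists, against 47.1% of all. The lost Neat1 sites had mean siNC levels of 0.115 to 0.297 (median 0.184), and the retained ones 0.285 to 0.759 (median 0.654). In Malat1 the lost sites had 0.113 to 0.194 (median 0.148) and the retained ones 0.296 to 0.901 (median 0.719). In Malat1 every retained site was thus above every lost site in siNC level, and in Neat1 the ranges overlapped only between 0.285 and 0.297.

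The loss was also set beside that of all sites of like level. At siNC levels of 0.1 to 0.2, 9 of 9 Neat1 sites and 7 of 7 Malat1 sites were in neither siVirma list. The same held for 85.5% of all such sites, and for 93.2% of those with at least 100 reads in both siNC lists. At 0.2 to 0.3, 6 of 7 Neat1 sites and 0 of 1 Malat1 sites were lost, against 57.2% of all sites and 58.3% of the deeply read ones. Above 0.3, 0 of 8 Neat1 sites and 0 of 5 Malat1 sites were lost. Over all sites the lost share there fell from 32.3% at 0.3 to 0.4 to 1.61% at 0.9 to 1. For the deeply read ones it was 9.57% at 0.3 to 0.4, 1.52% at 0.4 to 0.5 and 0% in each higher step. The step from 0.1 to 0.2 held 9 of the 24 Neat1 sites, 7 of the 13 Malat1 sites and 8418 of all 49554.

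The lost Neat1 sites with the highest siNC levels were 5894532, 5893971, 5893728 and 5893594. Position 5894532 had 0.315 and 0.279 in siNC on 222 and 219 reads. Position 5893971 had 0.268 and 0.282 in siNC on 563 and 511 reads, and only 9 nt away 5893980 was still read 388 and 320 times in siVirma. The stretch was therefore read in siVirma, although the lost position itself has no siVirma value. Position 5893728 had 0.218 and 0.259 in siNC, and 5893594 had 0.234 and 0.206. Over all 15 lost Neat1 sites, the nearest site in a siVirma list lay a median of 59 nt away and at most 353 nt, with 51 to 388 reads.

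The lost Malat1 sites included some of its most deeply read. Position 5849777 had 0.193 and 0.196 in siNC on 1692 and 1691 reads. Position 5850236 had 0.161 and 0.175 in siNC, and 5849234 had 0.140 and 0.155. Position 5847887, the most 3′ of all listed Malat1 sites, had 0.146 and 0.167 in siNC on 2000 and 2032 reads. All 4 were low and alike in the siNC replicates, and their depth in siVirma is not known. The nearest siVirma sites lay 283 to 1536 nt away, with 255 to 727 reads.

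A short stretch of Neat1 had the opposite pattern, with sites in both siVirma lists but not in both siNC lists. All 5 such sites lie within 159 nt, between 5893863 and 5894021. Position 5893901 had 0.577 and 0.514 in siVirma on 281 and 218 reads, and 5893908 had 0.218 and 0.191 on 289 and 215 reads, and neither was in a siNC list. The other 3 were in the list of siNC replicate 1 and missing from that of siNC replicate 2. In siVirma 5894021 had 0.492 and 0.496, against 0.807 on 533 reads in siNC replicate 1. Position 5893980 had 0.219 and 0.256 in siVirma against 0.543 in siNC replicate 1. Position 5893863 had 0.349 and 0.368 in siVirma against 0.710 in siNC replicate 1. Where siNC had a value, then, siVirma was again the lower group. The stretch was read in siNC replicate 2 too, where the neighbouring 5893971 and 5894054 had 511 and 501 reads. Over the whole lists such cases are few. Of 3077 sites in both siVirma lists and 1 siNC list, 40 had a level of at least 0.5 and at least 100 reads in that siNC list, and 3 of the 40 are these. Of 1667 sites in both siVirma lists and no siNC list, 89 had at least 100 reads in both siVirma lists, and 2 of the 89 are these. Malat1 had 0 in both counts. Why these positions are missing from siNC lists was not tested.

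The lists also give a coverage for each gene, here called gene coverage. The sources do not state how it was computed, so it is compared between libraries and not between genes. Neat1 had a gene coverage of 157 and 143 in siVirma against 280 and 280 in siNC, with no overlap. The means were 150 ± 9.49 in siVirma and 280 ± 0.31 in siNC (SD, n = 2 each). Malat1 had 715 and 592 in siVirma against 627 and 629 in siNC, so the siVirma replicates stood on either side of siNC. Its means were 654 ± 86.8 in siVirma and 628 ± 1.73 in siNC (SD, n = 2 each).

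Among 6787 genes listed in all 4 libraries, the median gene was 1.09-fold higher in siVirma, a shift of 0.13 on the log2 scale. Changes are given relative to that shift. Neat1 was at 0.489-fold (log2 change -1.03, SE 0.06), and at 0.535-fold without the correction. Only 1 of the 6787 genes had a lower value, Ptgs2, the inducible cyclooxygenase, at a log2 change of -1.12 (SE 0.05). Next above Neat1 was Tnfrsf23, a decoy receptor gene at the edge of the Kcnq1ot1 domain, at -0.93 (SE 0.06). Malat1 was at 0.947-fold (log2 change -0.08, SE 0.06) and at 1.04-fold without the correction, so its direction turned with the scaling. By limma at an adjusted p of 0.05, Neat1 was called lower and Malat1 was not called, while 9.15% of all genes were called lower and 13.3% higher (22.5% in either direction). Without the correction 30 genes were lower and 642 higher, against 621 lower and 905 higher with it. Both siVirma coverages lay below both siNC coverages in 4.58% of genes.

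The A+G reads at the member sites in all 4 lists can be set beside this. The reads at the 9 Neat1 sites were 0.622 times as many in siVirma as in siNC, with single sites from 0.517 to 0.698. At the 6 Malat1 sites the ratio was 1.06, with single sites from 0.853 to 1.47, and the median over all sites in all 4 lists was 1.21. Neat1 was thus lower in siVirma in reads per site as well as in gene coverage. The ratio of Neat1 to Malat1 coverage was 0.219 and 0.242 in siVirma against 0.446 and 0.445 in siNC. In bulk RNA such as this, fewer cells with Neat1 and less Neat1 per cell cannot be told apart. The libraries are of purified mRNA and isoforms were not separated, so a change in total Neat1 RNA was not tested.

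**Figure D4:**
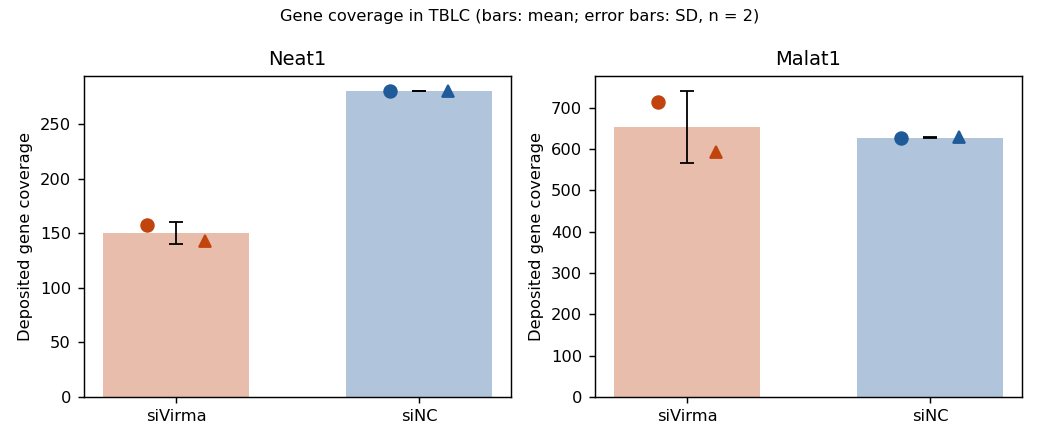
Deposited gene coverage of Neat1 (left) and Malat1 (right) in the TBLC libraries, before correction for the shift of the median gene. Bars are means of 2 libraries, error bars the SD, and symbols single libraries; the Neat1 bars stand at 150 for siVirma and 280 for siNC, and the Malat1 bars at 654 for siVirma and 628 for siNC, with overlapping points.

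Markers of feeder-type fibroblasts moved with the groups. Of 14 fibroblast genes tested, 12 were called higher in siVirma and 0 lower, with a median log2 change of 0.27, beside 13.3% higher and 9.15% lower over all genes. Their summed coverage was 1336 and 1090 in siVirma against 957 and 909 in siNC. The collagen genes Col6a3 and Col6a1 were 2.30-fold and 2.22-fold higher by limma (adjusted p = 2.49e-06 and 6.64e-06). Of 10 naive pluripotency genes tested 2 were called lower, Tbx3 and Tdgf1, with a median log2 change of -0.12. Of 7 genes of the 2-cell stage program 2 were called lower, Usp17la and Dppa2, with a median of -0.06, and of 8 primitive endoderm genes 2 were, Gata6 and Lamb1, with a median of -0.08. Without the correction for the median gene the 12 fibroblast changes and the 6 others kept their signs. The 6 were then at log2 changes of only -0.26 to -0.05, and the calls given are those with the correction. Uncorrected coverages overlapped between the groups for Tbx3, Gata6 and Lamb1, and did not for Tdgf1, Usp17la and Dppa2. The part of the fibroblast shift in the Neat1 values was not tested.

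A conversion rate per gene is listed too, taken from its name to be the share of the gene's adenosines read as G. For Neat1 it was 0.982 and 0.983 in siVirma against 0.966 and 0.966 in siNC, so on average 1.78% of adenosines stayed unconverted in siVirma and 3.39% in siNC. For Malat1 it was 0.989 and 0.989 in siVirma against 0.986 and 0.986 in siNC, with 1.08% unconverted in siVirma and 1.44% in siNC. The unconverted share fell by 1.61 percentage points in Neat1 and by 0.36 in Malat1, beside a median of -0.651 over all genes. Of the 6787 genes, 623 had a larger fall than Neat1 and 5300 a larger fall than Malat1.

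The EPSC table gives pooled reads per group, so it carries no replicate error, and Wilson 95% intervals cover counting error only. The contrast of sgGata6 with sgCtrl was not used to choose Neat1 and Malat1. Of the table's 19342 rows, 12 were Malat1 sites of the TBLC lists, 7 more lay within the Malat1 span, and 1 was a Neat1 site. The check of the guide's own target was not made here.

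The 4 most deeply read Malat1 rows come first. At 5849777 the level was 0.179 in sgGata6 (113 of 632 reads, interval 0.151 to 0.211) and 0.137 in sgCtrl (57 of 416, 0.107 to 0.173). Fisher's exact test, two-sided on pooled reads, gave p = 0.0865 there (adjusted over all rows, 0.510). At 5851453 the level was 0.806 in sgGata6 (552 of 685 reads, 0.775 to 0.834) and 0.784 in sgCtrl (240 of 306, 0.735 to 0.827), with an adjusted exact p of 0.907. The intervals overlapped at both sites. At 5847887 the level was 0.166 in sgGata6 (87 of 525 reads, 0.136 to 0.200) and 0.128 in sgCtrl (58 of 454, 0.1 to 0.162), with an adjusted exact p of 0.554. At 5850236 it was 0.150 in sgGata6 (49 of 326 reads, 0.116 to 0.193) and 0.0879 in sgCtrl (24 of 273, 0.0598 to 0.127), with an exact p of 0.0237 before and 0.303 after adjustment. The sgCtrl level at 5850236 is under the list minimum of 0.1. That row is therefore in the table through sgGata6 only, which fixes its direction. None of these 4 differences passed the adjusted threshold.

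Of the 19 Malat1 rows 17 had at least 20 reads in both groups, and 0 of them were called by Fisher's exact test at an adjusted p of 0.05. The background was 0.275% of 10185 rows, and before adjustment 6 of the 17 Malat1 rows had p under 0.05, beside 11.8% of all rows. Of the 10 tested rows shared with TBLC 6 were higher in sgGata6, with differences from -0.0344 to 0.0624. The 7 rows that are in no TBLC list were all lower in sgGata6, at 0 to 0.0462 in sgGata6 (49 to 137 reads) and 0.1 to 0.156 in sgCtrl (32 to 70 reads). They include 5 of the 6 rows with p under 0.05. All 7 passed the read and level minimums in sgCtrl only, which at their sgGata6 depth fixes their direction. The other of the 6, 5850236, passed in sgGata6 only, since its sgCtrl level of 0.0879 is under the minimum of 0.1. Its direction was fixed too. Among the 9 Malat1 rows past the minimums in both groups, 0 had an unadjusted p under 0.05 by Fisher's exact test. In all, 3652 rows passed in sgCtrl only and 7202 in sgGata6 only. The lowest adjusted p in Malat1, 0.0573 by Fisher's exact test, belonged to one of the 7, at 5852597. It had 0 of 137 A reads in sgGata6 (Wilson interval 0 to 0.0273), against 5 of 32 in sgCtrl (0.0686 to 0.318). The 3 reads that a count of 0 allows would be a share of 2.19% there.

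Malat1 was read more deeply in sgGata6. Its rows held 3798 A+G reads in sgGata6 and 2264 in sgCtrl, a ratio of 1.68, while all rows together gave 1.08. With pooled values there is no test of that difference.

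**Figure D5:**
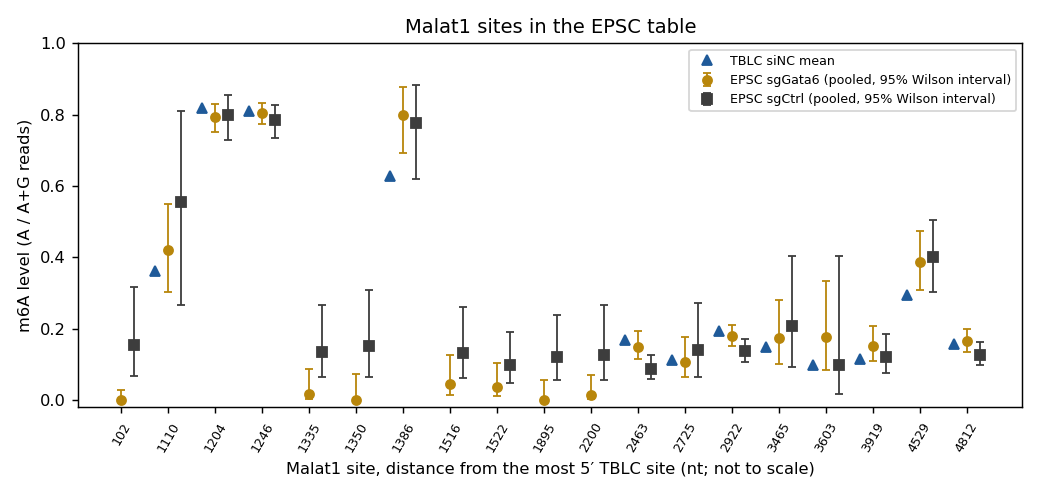
m6A level of the 19 Malat1 rows of the EPSC table, in order of distance in nt from the most 5′ TBLC site (not to scale). Triangles are the TBLC siNC mean (1 library at 3603 nt), circles pooled sgGata6 and squares pooled sgCtrl, with Wilson 95% intervals; the 7 rows without a triangle lie at 0 to 0.0462 in sgGata6, and the cluster near 0.8 overlaps between groups.

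The control cells could also be compared, as TBLC siNC against EPSC sgCtrl, which come from separate experiments and tables. Malat1 had 10 sites in both siNC lists with at least 20 sgCtrl reads. TBLC siNC was higher at 5 of them, with a median difference of 0.00674 and a range of -0.150 to 0.0802. Over all 8033 such sites the median was 0.0421, and TBLC siNC was higher at 68.2%. The most negative Malat1 difference was at 5851313, with a mean of 0.628 in TBLC siNC and 0.778 in EPSC sgCtrl (28 of 36 reads, interval 0.619 to 0.883). The siNC mean lies within that interval, as it does at 7 of the 10 sites. It lies above the sgCtrl interval at 5850236 (0.168 in siNC, interval 0.0598 to 0.127) and at 5849777 (0.194 in siNC, 0.107 to 0.173), and below it at 5848170 (0.296 in siNC, 0.302 to 0.506). At 5850236, which gives the largest difference of 0.0802, the sgCtrl level of 0.0879 is under the list minimum of 0.1. That row is in the EPSC table through sgGata6 only, so siNC was bound to be higher there. Positions 5849777 and 5848170 lie outside on opposite sides. With 3 sites outside, in both directions, and pooled sgCtrl reads, no common shift of Malat1 is shown.

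Neat1 had 1 row in the EPSC table. Of all 49554 sites in both siNC lists, 10958 were there with at least 15 sgCtrl reads. Of the 24 such sites in Neat1 it was 1, 5894054. It had 5 of 15 A reads in sgGata6, a level of 0.333 (interval 0.152 to 0.583), and 3 of 16 in sgCtrl, a level of 0.188 (0.0659 to 0.430), which is under the minimum for a test. The TBLC siNC mean at this site was 0.759, higher by 0.572 than sgCtrl and above its interval. The row is in the table through sgGata6 only, where it has just the 15 A+G and 5 A reads needed. Its 3 A reads in sgCtrl are under that minimum, so the difference from TBLC is not ranked. Over the 10958 sites with at least 15 sgCtrl reads the median difference was 0.0425. Reads at this Neat1 site per 100 reads at Malat1 5851453 were 15.7 and 13.6 in siVirma, 26.0 and 23.5 in siNC, 2.19 in sgGata6 and 5.23 in sgCtrl. Both EPSC values are below every TBLC value, on counts of 15 and 16 reads.

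Other long noncoding RNAs gave a setting for these values. The 70 names looked for stand for 67 RNAs, since 3 are older names of others, and 26 had a listed site. Of their 129 sites in both siNC lists, 37 (28.7%) were in neither siVirma list, beside 33.1% of all sites. All 11 genes tested for the summed level were called lower, beside 93.8% of all genes, with a median of 53.6% kept, beside 44.9%. Tug1, a nuclear and cytoplasmic RNA, lost 6 of 39 sites and kept 67.0%, at 0.380 ± 0.0166 in siVirma and 0.567 ± 0.00573 in siNC (SD, n = 2 each; edgeR adjusted p = 5.53e-14). Lncenc1, an RNA of naive pluripotent cells, lost 8 of 24 and kept 54.0%. Oip5os1, also known as Cyrano, lost 5 of 12 and kept 72.0% on 2 sites. Rian, an imprinted RNA of the Dlk1-Dio3 region, lost 2 of 10 and kept 52.7%. Malat1 and Neat1 thus had larger shares of lost sites than each of these 4, with no test made of that difference. The shares are not matched for siNC level or read depth, and lost sites were the low ones. In coverage, 2 of 14 were called lower, Tug1 at 0.836-fold and Norad at 0.823-fold, and 1 higher, Meg3 at 1.21-fold (limma adjusted p = 0.00995, 0.0118 and 0.00694). The median log2 change of the 14 was -0.02, and over all genes 9.15% were lower and 13.3% higher.

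Paraspeckle proteins bind Neat1, and 29 of 32 looked for had a listed site. Of 23 tested for coverage 0 were called lower and 2 higher, Rbm7 at 1.20-fold and Rnf8 at 1.23-fold (limma adjusted p = 0.00946 and 0.0157), with a median log2 change of 0.04, beside 9.15% lower and 13.3% higher over all genes. Their m6A was lower in 22 of 23 genes by edgeR at an adjusted p of 0.05, beside 93.8% of all genes, with a median of 37.1% kept. Of their 161 sites in both siNC lists, 71 (44.1%) were in neither siVirma list, beside 33.1% of all. Tardbp, which encodes the RNA-binding protein TDP-43, lost 11 of 19 sites and kept 50.0%. Rbm12 lost 3 of 23 and kept 59.8%, Cpsf7 lost 3 of 11 and kept 34.8%, and Hnrnpr lost 4 of 11 and kept 37.7%.

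Of 17 genes near Neat1 and Malat1 on chromosome 19, 13 had a listed site. Of 9 tested for coverage 0 were called lower and 2 higher, Fam89b at 1.35-fold and Map3k11 at 1.14-fold (limma adjusted p = 0.00134 and 0.0364), with a median log2 change of 0.09, and these counts are near the 9.15% lower and 13.3% higher of all genes. Frmd8, a neighbour with 11 sites in both siNC lists, was at 1.05-fold with an SE of 0.06 on the log2 scale (limma adjusted p = 0.464), and lost 3 of those sites. Their summed m6A level was lower in 7 of 8, all but Znrd2 (log2 change in odds -0.12, SE 0.47, edgeR adjusted p = 0.822), with a median of 44.6% kept and 20 of 57 sites lost, beside 93.8% of genes lower and 33.1% of sites lost in all. Rela, a subunit of NF-kappaB, kept 46.8%, and Pola2, a DNA polymerase alpha subunit, kept 45.3%.

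Kcnq1ot1 had 0 rows in the TBLC lists under its name and under the 3 older names looked for. Between the last Tssc4 site and the first Cdkn1c site on chromosome 7, the stretch that holds Kcnq1 and its antisense RNA, there were 0 TBLC rows and 0 EPSC rows. It therefore has neither a level nor a gene coverage here, and no statement on its abundance can be made. Of 17 genes of its imprinted domain 11 had a listed site. Cdkn1c, a cell cycle inhibitor that Kcnq1ot1 silences in mouse, lost 5 of 5 sites and was in no siVirma list, with a gene coverage of 34.5 and 37.4 in siNC. Of 6 domain genes tested for coverage 1 was lower, Tnfrsf23 (limma adjusted p = 1.45e-05), and 2 were higher, Dhcr7 at 1.20-fold and Tssc4 at 1.13-fold (0.0121 and 0.0411), with a median log2 change of 0.07, beside 9.15% lower and 13.3% higher in all. All 5 tested for level were lower, with a median of 44.8% kept, and 18 of 42 sites were lost, beside 93.8% of genes lower and 33.1% of sites lost in all. Tssc4 kept 40.8%, Dhcr7 46.0% and Nap1l4, a histone chaperone, 40.0%.

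Genes most like each RNA were found by Euclidean distance over 4 measures, each in units of its SD, among 1860 genes with at least 8 sites in both siNC lists and 3 in all 4 lists. The measures were the share of sites lost, the mean siNC level, the share of level kept and the log2 coverage change. The nearest genes to Malat1 were Rabif at a distance of 0.607, Mex3c at 0.702 and Klf5 at 0.739. The nearest to Neat1 were much further off, B230219D22Rik at 3.63, Thbs1 at 3.77 and Angptl2 at 3.95. Those 3 had log2 coverage changes of -0.56, -0.44 and -0.40, against -1.03 in Neat1. Values of these measures were known when the members were chosen, so the distances are a description.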

How the data were processed

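GLORI libraries were made from purified mRNA, per the labels' protocols, and mapped to mm39, per the submitters' processing notes. The sources used here name neither an aligner nor a site caller. Each deposited TBLC list gives counts of A+G and of unconverted A reads per site, per the file headers, and the deposited level is a fraction equal to their quotient. The gene coverage signal and the conversion rate were computed by the authors, and the deposited p-values were not used. The EPSC table holds deposited counts of A reads, coverage by A+G reads (whole numbers) and levels, each pooled per group, and 2 further columns were not used. Sites without a gene name make up 6.14% to 7.7% of a list.

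Groups came from the sample titles. Levels were tested with edgeR 4.0.16 (R 4.3.3) on A and G reads at sites in all 4 TBLC lists with at least 20 reads in each, with a term per library and Benjamini-Hochberg adjustment over all sites or genes. The log2 coverage was tested with limma 3.58.1 after each library was centred on its median deviation. Sites with zero variance were offset from 0 by limma. For EPSC the planned edgeR test gave way to Fisher's exact test, since only pooled values are in the table, and it compares pools of libraries rather than conditions. Alternatives used DESeq2 1.42.0, limma on log2 odds with 0.5 reads added, other minimums and left-out libraries. The tests were tried on simulated data. Tables and plots were made in Python 3.11.15 with pandas 2.3.3, numpy 2.4.6, scipy 1.17.1 and matplotlib 3.10.9. Replicate libraries of a group differed beyond sampling noise in reads per site (chi-square p = 1.19e-43 for siVirma and 1.05e-220 for siNC) and were kept apart. The values used do not show whether reads were counted per molecule, and intervals cover counting error only.

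Sites were named by rule. These were all Malat1 sites in all 4 lists, the 4 Neat1 sites that kept most and the 4 that kept least, the 4 lost sites per gene with the highest siNC level, sites in both siVirma lists and no siNC list, and the 4 Malat1 EPSC rows with the most reads. From each gene list the 4 genes with the most sites in both siNC lists were available for naming. Genes that were the few calls of a list, the 3 sites missing from siNC replicate 2 and 5852597 were named after their values were seen. The members and the gene lists (other long noncoding RNAs, paraspeckle proteins, the Kcnq1ot1 domain, neighbours, fibroblast, naive pluripotency, 2-cell stage and primitive endoderm genes) were chosen with earlier results of these data known. RefSeq names come from another build, so no coordinate was taken from them. One gene that the naming would have taken is not reported here.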

Additional observations from a re-analysis of the deposited data

How the results depend on the processing

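The 15 single sites kept their direction and call in 132 of 134 comparisons. The other 2 were of the most 5′ Malat1 site, which was not called in any fit and changed sign, at 0.23 without siNC replicate 2 and 0.06 without siVirma replicate 2, against -0.06 (range -0.39 to 0.23 with 1 library left out). The count of sites called lower in siVirma was 13 of 14 with a minimum of 50 reads, beside 94.4% of all sites. It was 14 of 15 in the other fits on all 4 libraries, beside 83.7% (DESeq2) to 91.6% of all sites. Leaving out siNC replicate 2 brings back 3 Neat1 sites. The log2 change in odds ran from -1.82 to -1.74 for Neat1 and from -1.79 to -1.65 for Malat1, and was -1.76 for Malat1 without its most 5′ site, an alternative chosen after seeing the data. The log2 coverage change of Neat1 ran from -1.06 to -1.0 with 1 library left out and was -0.90 when not centred. For Malat1 it ran from -0.12 to -0.03 and turned to 0.05 when not centred, uncalled in both scalings. Counts of lost sites depended most on the definition. With at least 50 reads and a level of 0.4 in both siNC lists, 0 of 6 Neat1 sites and 0 of 4 Malat1 sites were lost, against 0.246% of all. With sites called in at least 1 siNC library, 12 of 18 Malat1 sites and 20 of 32 Neat1 sites were lost, beside 48.5% of all. Leaving out 1 library gave 7 to 11 lost Malat1 sites and 15 to 18 lost Neat1 sites, beside 40.8% to 45.1% of all. Without siNC replicate 1, 11 of 17 Malat1 sites were lost, beside 42.1% of all. The labels number the replicates but do not say that a number is shared, and deviations of same-numbered libraries correlated at 0.00792 for levels and 0.138 for coverage, on only 2 pairs. With the replicate block the Neat1 changes stayed at -1.78 in odds and -1.03 in coverage, and 14 sites were called. In EPSC 0 Malat1 rows were called with a minimum of 20 reads, of 10 reads or none, with lowest adjusted p of 0.0573, 0.0952 and 0.109 by Fisher's exact test. It was 1 over the 9 rows past the minimums in both groups, which was also chosen after seeing the data. Depth limits the Neat1 EPSC site, with 15 and 16 reads, and the most 5′ Malat1 site.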
